A study of Rattus norvegicus with 4 samples.

Results

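Myofibre-like barcodes are droplets whose RNA is rich in contractile and energy genes of the muscle fibre, the giant multinucleate cell that does the work of skeletal muscle. They were chosen by measured values. A barcode was kept with at least 500 unique molecular identifiers (UMIs), at least 200 genes and at most 20% mitochondrial UMIs, and it counted as myofibre-like when Myl1, Ckm, Tnni2, Tnnc2, Mb, Mylpf, Tnnt1, Tnnt3, Cox6a2 and Pgam2 together held at least 5% of its UMIs. This gave 442 of the 14233 kept barcodes, 3.11%, from 17504 deposited ones. The libraries are 10x 3' single-cell libraries of total cells from enzyme-digested rat muscle, all from rats aged 12 months. They cover a limb muscle, the tibialis anterior (TA), and the muscles that turn the eye (extraocular, EOM), each with 1 library labelled DMD and 1 labelled wild-type (WT). In Duchenne muscular dystrophy dystrophin is missing from the fibres, and eye muscles are known for suffering less from it. The labels do not give the strain, the sex, the dystrophin allele or the number of animals behind a library.

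Groups are named by the disease state field of the labels, and TA DMD, TA WT, EOM DMD and EOM WT below mean the libraries so labelled. In all 4 samples the title states the opposite disease state. If the titles are right, each direction of DMD over WT below has to be read the other way, while the comparisons between muscles keep theirs with the pairs exchanged. The dystrophin gene Dmd cannot settle this, since 3' tags can lie outside the altered part. Among myofibre-like barcodes it had 12 UMIs in TA DMD, 1 in TA WT, 3 in EOM DMD and 0 in EOM WT, and all 12 of TA DMD lay in 1 barcode. With 1 library per group there is no replicate check on any difference, so no test was run. Intervals in parentheses are exact 95% intervals that cover counting error only, not animals, digestions or cells. A gene is called higher or lower when it passed 2-fold on the log2 scale with 10 added to both levels in CPM, the UMIs of a gene per 1000000 UMIs of the myofibre-like barcodes.

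Muscle fibres come in kinds that differ in the isoforms of the same machinery. Fast fibres carry the troponins Tnnc2, Tnni2 and Tnnt3 and fast myosins, slow fibres the troponins Tnnc1, Tnni1 and Tnnt1 and the slow myosin Myh7, and oxidative fibres add myoglobin, fatty acid binding protein and mitochondrial enzymes. Extraocular muscles are known for a wide mix that also includes embryonic and cardiac isoforms.

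Sequences around the annotated starts of 4 genes are shown because the results turn on both pairs. Myh7 and Myh4 mark slow and fast barcodes, and Actc1 and Acta1, the cardiac and skeletal actins, part the eye and limb muscles. Each sequence runs 5' to 3' from 250 bases before to 50 after the annotated start. The starts are from RefSeq on build GRCr8, which is not the build of the counts. Whether transcription begins at these starts was not checked, so a window may lie outside the promoter. Of 16 fibre genes looked up, 11 had such a window. Capitals mark matches on either strand to CAGCTG (a form of the E-box), CATTCC (the MCAT element) or TATAAA (the TATA box). The windows are Myh7 at chr15:32438145-32438444 on the minus strand, Myh4 at chr10:52421898-52422197 on the plus strand, Actc1 at chr3:121271778-121272077 on the minus strand and Acta1 at chr19:68784145-68784444 on the minus strand.
Myh7: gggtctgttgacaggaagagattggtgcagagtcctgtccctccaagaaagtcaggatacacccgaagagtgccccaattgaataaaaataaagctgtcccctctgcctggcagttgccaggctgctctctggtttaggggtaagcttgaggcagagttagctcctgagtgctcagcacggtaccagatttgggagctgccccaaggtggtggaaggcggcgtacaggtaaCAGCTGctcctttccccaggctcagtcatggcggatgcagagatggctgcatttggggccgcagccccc
Myh4: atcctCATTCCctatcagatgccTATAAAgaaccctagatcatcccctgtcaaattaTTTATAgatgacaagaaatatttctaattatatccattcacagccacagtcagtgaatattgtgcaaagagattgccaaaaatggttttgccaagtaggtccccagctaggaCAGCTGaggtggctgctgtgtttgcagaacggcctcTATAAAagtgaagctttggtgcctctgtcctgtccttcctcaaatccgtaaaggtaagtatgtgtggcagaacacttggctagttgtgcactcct
Actc1: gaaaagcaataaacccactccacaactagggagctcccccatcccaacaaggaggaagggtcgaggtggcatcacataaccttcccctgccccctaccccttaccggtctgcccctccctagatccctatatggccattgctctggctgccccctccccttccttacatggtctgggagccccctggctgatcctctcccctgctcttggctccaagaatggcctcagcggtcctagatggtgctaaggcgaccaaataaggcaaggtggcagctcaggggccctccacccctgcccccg
Acta1: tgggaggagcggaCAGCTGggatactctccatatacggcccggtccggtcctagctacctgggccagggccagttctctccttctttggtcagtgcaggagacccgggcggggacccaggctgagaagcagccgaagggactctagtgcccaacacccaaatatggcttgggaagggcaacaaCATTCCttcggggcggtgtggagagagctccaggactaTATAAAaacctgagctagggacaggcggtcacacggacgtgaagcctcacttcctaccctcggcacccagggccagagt
Myh7 has 1 CAGCTG, Myh4 has 1 CAGCTG, 1 CATTCC and 3 TATAAA, and Acta1 has 1 of each. Actc1 has none of the 3 in this window. No match overlaps another. Of all 33469 such windows looked at, 15.1% hold CAGCTG, 14.2% CATTCC and 14.2% TATAAA. A match is therefore common and is given as a description only.

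TA DMD held 122 myofibre-like barcodes of 8549 kept, 1.43% (1.19 to 1.7), and TA WT 130 of 2119, 6.13% (5.15 to 7.24). EOM DMD held 153 of 2303, 6.64% (5.66 to 7.74), and EOM WT 37 of 1262, 2.93% (2.07 to 4.02). The log2 ratio of these shares was -2.10 (-2.47 to -1.74) for TA DMD over TA WT and 1.18 (0.65 to 1.74) for EOM DMD over EOM WT. The share was lower in the library labelled DMD in TA and higher in the one labelled DMD in EOM. A share also moves with how many other cells a library holds, and with 25, 43 and 13 further barcodes of TA WT, EOM DMD and EOM WT, beside 2 of TA DMD, that met the 5% rule but not the mitochondrial limit. With the limit at 10%, the TA value was -1.72. Between muscles it was -1.07 (-1.63 to -0.53) for EOM WT over TA WT and 2.22 (1.87 to 2.57) for EOM DMD over TA DMD.

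The rule itself fixes how the chosen barcodes stand to the rest, so its values are given as a description. The rule genes held between 5.1% and 31.7% of UMIs in TA DMD (median 17.9%), 7.05% to 26.6% in TA WT (17.4%), 5.56% to 26% in EOM DMD (15.9%) and 10.6% to 21% in EOM WT (15.3%). Just outside, the highest shares were 4.96% in TA DMD, 4.2% in TA WT, 4.39% in EOM DMD and 3.94% in EOM WT. Pooled over all other kept barcodes, the rule genes held 0.0319%, 0.0372%, 0.0248% and 0.0133% in the same order, and 56.1% to 77.2% of those barcodes had no UMI of them. The edge was least sharp in TA DMD, with 60 barcodes between 2% and 5% and 25 between 5% and 10%, against 8 and 24 in TA WT. EOM DMD had 7 and 9 there, and EOM WT 3 and 0.

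Most were shallow. The median was 883 UMIs in TA DMD, 1186 in TA WT, 1536 in EOM DMD and 1834 in EOM WT, against 1184, 2581, 4813 and 3741 in the other kept barcodes. Median genes were 402, 460.0, 572 and 671. Together they held 180769 UMIs in TA DMD, 231033 in TA WT, 415736 in EOM DMD and 82656 in EOM WT. One barcode gave 10.2% of those UMIs in TA DMD and 12.4% in EOM WT, against 4.35% in TA WT and 6.98% in EOM DMD. No barcode sequence was shared between the myofibre-like barcodes of any libraries, and 22 were shared among all deposited ones. Whether a barcode is a cell or a fragment of a fibre cannot be read from these counts.

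The label fits the markers that the rule did not use. Skeletal actin Acta1, the thin filament of the sarcomere, stood at 82332 CPM in TA DMD, 65514 in TA WT, 20669 in EOM DMD and 21922 in EOM WT. Of 6 satellite cell markers, Pax7 and Calcr had 0 UMIs in the myofibre-like barcodes of all 4 libraries. The 6 together held 0.0144% of UMIs in TA DMD, 0.00303% in TA WT, 0.0154% in EOM DMD and 0.00484% in EOM WT, against 0.0162%, 0.0246%, 0.0286% and 0.037% in the other barcodes, so that in TA DMD the list stood near the level of the rest. T and NK, B, neutrophil, Schwann and adipocyte markers together had 1 to 3 UMIs per list or none. Endothelial markers held 0.0205% of UMIs in TA DMD and 0.0151% in TA WT, against 0.255% and 0.496% in the other barcodes. Mural markers held 0.0337% in TA DMD and 0.00346% in TA WT, macrophage markers 0.0409% and 0%, and haemoglobin and other erythroid markers 0.0708% and 0.124%, against 0.497% and 9.36% in the other barcodes. In EOM, the fibroblast, macrophage, mural and antigen-presenting lists each held 0.00794% or less. TA DMD carried the most foreign signal. There, 13 barcodes had 1% or more of their UMIs on markers of another cell type, against 1 in TA WT and 0 in both EOM libraries. Fibroblast markers (Pdgfra, Dcn, Col1a1, Col3a1 and Lum) held 0.0769% of UMIs in TA DMD and 0.000433% in TA WT, and antigen-presenting markers such as Cd74 0.159% and 0%. Immediate early genes such as Fos, which digestion is known to induce, held 0.401% in TA DMD and 0.0939% in TA WT, against 3.04% and 2.19% in the other barcodes. The part of these signals in the results below was not tested. Leaving out the 14 barcodes with 1% or more on markers of another cell type changed neither the direction of a named gene nor a count of genes by over 1.5 times. The 24 barcodes of TA DMD with 1% or more on immediate early genes, against 1 in TA WT, stayed in throughout.

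Myofibre-like barcodes fell into a slow and a fast kind by their troponins, with none near an even mix. The slow share of troponin UMIs, (Tnnc1 + Tnni1 + Tnnt1) over those plus Tnnc2, Tnni2 and Tnnt3, lay between 40% and 60% in 0 of the 442. Slow barcodes, over 50%, numbered 2 of 122 in TA DMD (1.64%, 0.199 to 5.8), 19 of 130 in TA WT (14.6%, 9.03 to 21.9), 20 of 153 in EOM DMD (13.1%, 8.17 to 19.5) and 1 of 37 in EOM WT (2.7%, 0.0684 to 14.2). Each share rests on 1 library, so no difference between groups was called. The 3 troponin families moved together. Of 126 barcodes of TA WT with at least 3 UMIs in each family, 16 were slow in all 3, 110 were fast in all 3 and 0 were mixed. In TA DMD 1 of 118 was mixed, in EOM DMD 10 of 152 and in EOM WT 0 of 37. The rule holds the slow Tnnt1 and more fast isoforms, and slow barcodes of TA WT lay nearer its threshold. The median rule share was 8.64% in slow and 18.1% in fast barcodes of TA WT, and with a threshold of 10% the slow share of TA WT was 0, where that of TA DMD was 1.03%, of EOM DMD 9.72% and of EOM WT 2.7%. Below the threshold, barcodes with 1% to 5% of UMIs on the rule genes and at least 10 troponin UMIs were mostly slow in 2 of 32 in TA DMD, 0 of 15 in TA WT, 2 of 8 in EOM DMD and 0 of 5 in EOM WT.

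**Figure D1:**
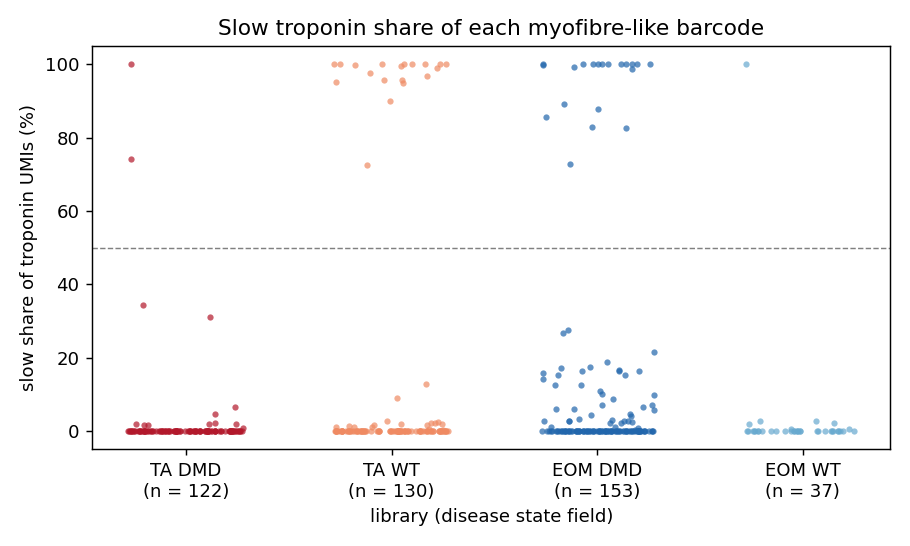
Slow share of troponin UMIs (y axis, percent) in each myofibre-like barcode (points, spread sideways at random) by library (x axis); the dashed line is the 50% limit. No point lies between 40% and 60%, and EOM DMD has 18 points between 10% and 50%, against 2 in TA DMD, 1 in TA WT and 0 in EOM WT.

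The split by troponin carried the rest of the sarcomere with it, as a description of the kinds it defines. In TA WT, the slow myosin heavy chain Myh7 stood at 4169 CPM in slow and 5.58 in fast barcodes. Tropomyosin Tpm3 had 9611 CPM in slow barcodes and no UMI in fast ones, at least 574-fold higher with the limit of 3 counts. The slow calcium pump Atp2a2, which refills the sarcoplasmic reticulum, had 637 and 11.2 CPM. The light chain Myl2 had 12526 and 982 CPM and the Z-disc protein gene Myoz2 4072 and 497. Carbonic anhydrase Ca3, an abundant cytosolic enzyme of slow fibres, had 11522 and 2025. On the other side, the fast tropomyosin Tpm1 had 38.6 CPM in slow and 19378 in fast barcodes, and the fast myosin Myh4 57.9 and 3337. Parvalbumin (Pvalb), the calcium buffer of fast fibres, and the fast actinin Actn3 had no UMI in slow barcodes and 915 and 815 CPM in fast ones. Lactate dehydrogenase A, Ldha, the glycolytic form, had 829.9 and 2600.

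In EOM DMD the slow kind differed from that of TA WT in the levels of several genes. Myh7 reached 642 CPM in its slow barcodes, against 0 in its fast ones, and the slow light chain Myl3 3123 against 41.7, where slow barcodes of TA WT had 22620 CPM of Myl3. Cardiac troponin T, Tnnt2, had 3176 CPM in slow and 36.1 in fast barcodes of EOM DMD, and the light chain Myl10 2123 and 13.9. Pln, which encodes phospholamban and restrains the slow calcium pump, had 2659 and 192, and its relative Sln, sarcolipin, 3176 and 431. Slow barcodes of TA WT had 38.6 CPM of Pln and 212 of Sln. The 2 slow barcodes of TA DMD lay nearer EOM DMD in some of these genes. They had 3631 CPM of Sln, 4149 of Myl3 and 3112 of Tnnt2, the last in 1 barcode, with no UMI of Myh7 or Pln. Nefm, a neurofilament gene, and Rspo3, a secreted activator of WNT signalling, had 535 and 339 CPM in slow barcodes of EOM DMD. Its fast barcodes had no UMI of either. Embryonic Myh3 stood at 375 CPM in slow barcodes of EOM DMD, against 145 in fast ones. Slow barcodes of TA WT also had Myl10, at 212 CPM against 11.2 in fast ones, and 4 UMIs of Rspo3 against 0. They had 11 UMIs of Tnnt2, all in 1 barcode, and no UMI of Nefm or Myh3. Many of the 20 slow barcodes of EOM DMD lacked a UMI of some of these genes. Myl3 was found in 19 of them, Pln in 14, Sln in 12, Tnnt2 in 11 and Myl10 in 10. Myh7 and Nefm were found in 9 each, Rspo3 in 7 and Myh3 in 5. The only slow barcode of EOM WT was also its largest, at 10247 UMIs. It had 16 UMIs of Tnnt2, 2 of Myh7, 3 of Myh6 and 34 of Pln.

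**Figure D2:**
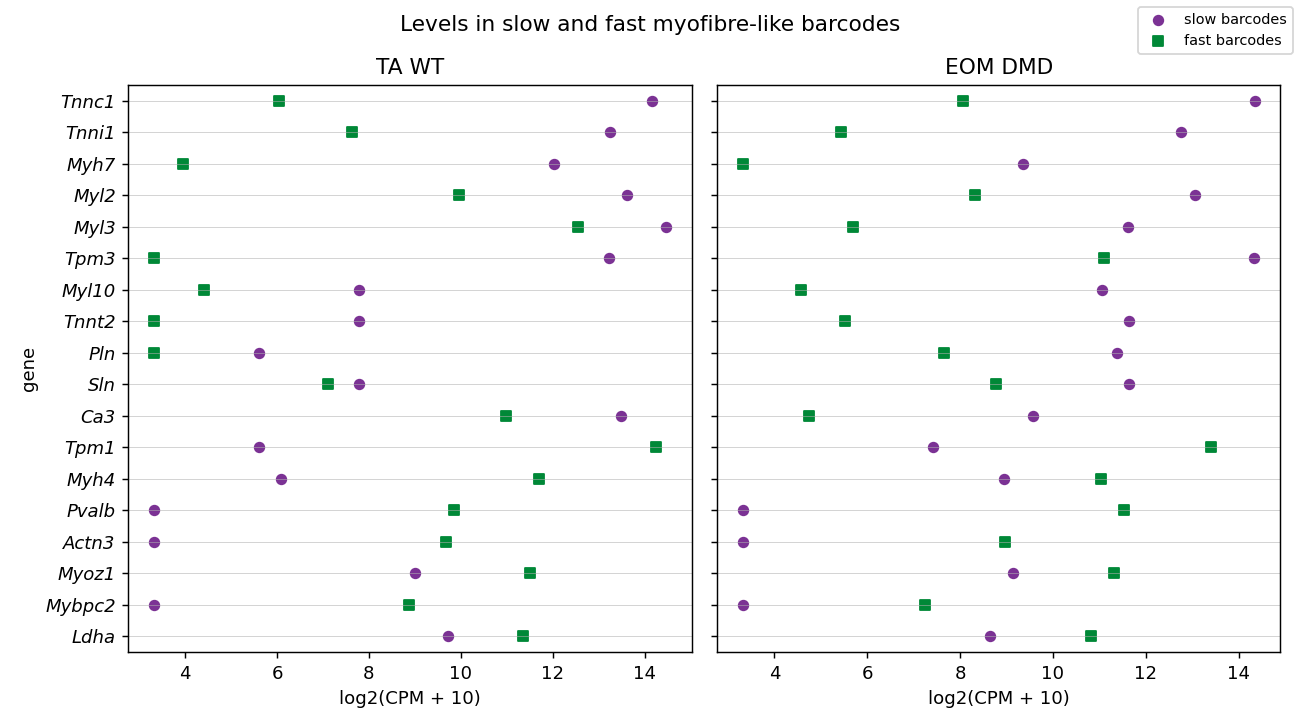
Pooled level, as log2 of CPM plus 10 (x axis), of 18 genes (y axis) in slow (circles) and fast (squares) barcodes of TA WT and EOM DMD. The upper 11 genes sit to the right in slow barcodes and the lower 7 in fast ones, in both libraries; Tnnc1 and Tnni1 helped to define the split.

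Fast barcodes were not uniform either. Thinned to 500 UMIs each, 47 of 111 fast barcodes of TA WT had a UMI of Myl3, 42.3% (33 to 52.1), against 5 of 120 in TA DMD, 4.17% (1.37 to 9.46). In EOM, 3 of 133 fast barcodes of EOM DMD and 1 of 36 of EOM WT did. Within TA WT, the barcodes with Myl3 had more of the oxidative genes. Fabp3, the fatty acid binding protein of muscle and heart, had 5125 CPM in barcodes with Myl3 and 1318 in those without. Ldhb, the lactate dehydrogenase of oxidative tissue, had 920.1 and 35.0 CPM, Myl2 1883 and 0, and Cox8b, a subunit of cytochrome oxidase, 7072 and 3930. The fast genes went the other way. Pvalb had 42.8 CPM in barcodes with Myl3 and 1866 in those without, Actn3 74.9 and 1621, and Myh4 2268 and 4501. The median depths were 1340 UMIs in barcodes with Myl3 and 979.5 in those without.

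In EOM DMD, 26 barcodes had a slow troponin share between 5% and 50%, 17% (11.4 to 23.9), where the other fast ones had under 5%. In these 26 the slow signal was mostly Tnnt1, which gave 442 of 534 slow troponin UMIs, 82.8%. They had 5782 CPM of Tnnt1, against 162 in the 107 barcodes under 5%. Pvalb stood at 65.4 against 3714 CPM, Actn3 at 0 against 625, and Klk1, a tissue kallikrein, at 39.2 against 1070. Tpm3 stood at 6148 against 1098, Myl2 at 1426 against 10.6, and Myh3 at 353 against 88.3. A doublet of a slow and a fast barcode would mix both troponin sets, and whether any of the 26 is one was not tested.

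Among myosin heavy chains, the motor of the thick filament, the fast Myh4 had 785 UMIs in TA DMD, 601 in TA WT, 774 in EOM DMD and 162 in EOM WT. Myh7 had 0 UMIs in TA DMD, 217 in TA WT, 36 in EOM DMD and 2 in EOM WT. Embryonic Myh3 had 13, 0, 73 and 10 UMIs in the same order, and 7 of the 13 of TA DMD lay in 1 barcode. Perinatal Myh8 had 0 in both TA libraries, 25 in EOM DMD and 5 in EOM WT. Myh6, Myh7b and Myh15 had 17 UMIs or fewer in each library. The other fast myosins Myh1 and Myh2 and the extraocular myosin Myh13 were not analysed here.

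In TA, myofibre-like barcodes labelled DMD had far less RNA of oxidative metabolism. The 22 nuclear genes of the respiratory chain measured encode subunits that make ATP from oxygen. They make up 23 features, since Uqcrb has another copy. Together they held 2.32% of UMIs in TA DMD and 5.76% in TA WT. The quartiles over barcodes were 1.5% to 2.95% in TA DMD and 4.04% to 6.62% in TA WT, which is a spread within each library and not between animals. Over all genes tested, 11.0% were higher and 36.9% lower past 2-fold (69 and 232 of 628), with a median log2 ratio of -0.66. The mitochondrial transcripts of the same barcodes also had a lower share in TA DMD, with a median of 3.38% of UMIs in TA DMD and 6.67% in TA WT, against 6.52% and 6.35% in the other kept barcodes. Their part in the differences was not tested. Without the filter that asks for higher levels in fibres than in other barcodes, the median over genes of at least 100 CPM was -0.04. Of the 23 respiratory chain features, 22 passed the filters, both copies of Uqcrb among them, and 17 of these were lower and 0 higher. Atp5mc1, a subunit of ATP synthase, had 1029 CPM in TA DMD and 3640 in TA WT, Uqcrfs1, the Rieske protein of complex III, 420.4 and 1619, and cytochrome c, Cycs, 924 and 2913. The smallest difference was in Cox4i1, at 2185 and 3272 CPM.

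The 19 genes of fatty acid and citrate cycle enzymes measured held 0.755% of UMIs in TA DMD and 2.37% in TA WT, and 10 of 13 that passed the filters were lower and 0 higher. Fabp3 had 238 CPM (172 to 320.4) in TA DMD and 3757 (3511 to 4016) in TA WT, 15.8-fold lower (11.6 to 22). It was found in 26 of 122 barcodes of TA DMD and 98 of 130 of TA WT. Mdh1, the cytosolic malate dehydrogenase, had 116 and 1519 CPM, 13.1-fold lower (8.42 to 21.4). Hadh, which takes part in fatty acid oxidation, had 2 UMIs in TA DMD and 53 in TA WT. Ckmt2, the mitochondrial creatine kinase, had 3 and 171 UMIs, a ratio of 44.6-fold lower (15 to 218). Myoglobin (Mb), which stores oxygen and was 1 of the rule genes, had 4863 CPM in TA DMD and 22006 in TA WT, and its median over fast barcodes was 0.142% of UMIs in TA DMD and 2.04% in TA WT. The glycolytic list held 2.15% of UMIs in TA DMD and 2.62% in TA WT. Of its genes 5 of 13 were lower, near the 36.9% of all genes tested, and its most abundant gene Aldoa had 12873 and 13202 CPM.

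Slow sarcomere genes were lower in TA DMD, in part only where slow barcodes were counted. The list of 9 held 0.251% of UMIs in TA DMD and 2.53% in TA WT. Of the 9, 8 were lower, where 36.9% of all genes tested were, and the median log2 ratio was -3.42. Myl3 had 315 CPM in TA DMD and 9700 in TA WT, 30.8-fold lower (23.7 to 40.7). Myl2 had 221 and 3571, and Myh7 0 and 939, at least 56.6-fold lower. In fast barcodes alone the median of the list was -0.41. There Tpm3 had 3 UMIs in TA DMD and 0 in TA WT and Tnnc1 28 and 10, too few to give a direction, where over all barcodes their log2 ratios were -3.98 and -3.42. Myl3 stayed at -4.39 and Myl2 at -4.04. The oxidative lists kept their size in fast barcodes alone, with medians of -1.32 for the respiratory chain and -1.69 for fatty acid and citrate cycle genes, against -1.35 and -1.73 in all barcodes. Fast barcodes with Myl3 were also fewer in TA DMD, as given above, and the part of that mix in the oxidative values was not tested. TA DMD fast barcodes without Myl3 had 181 CPM of Fabp3, 2036 of Cox8b and 3990 of Mb. Those of TA WT without Myl3 had 1318, 3930 and 16117.

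**Figure D3:**
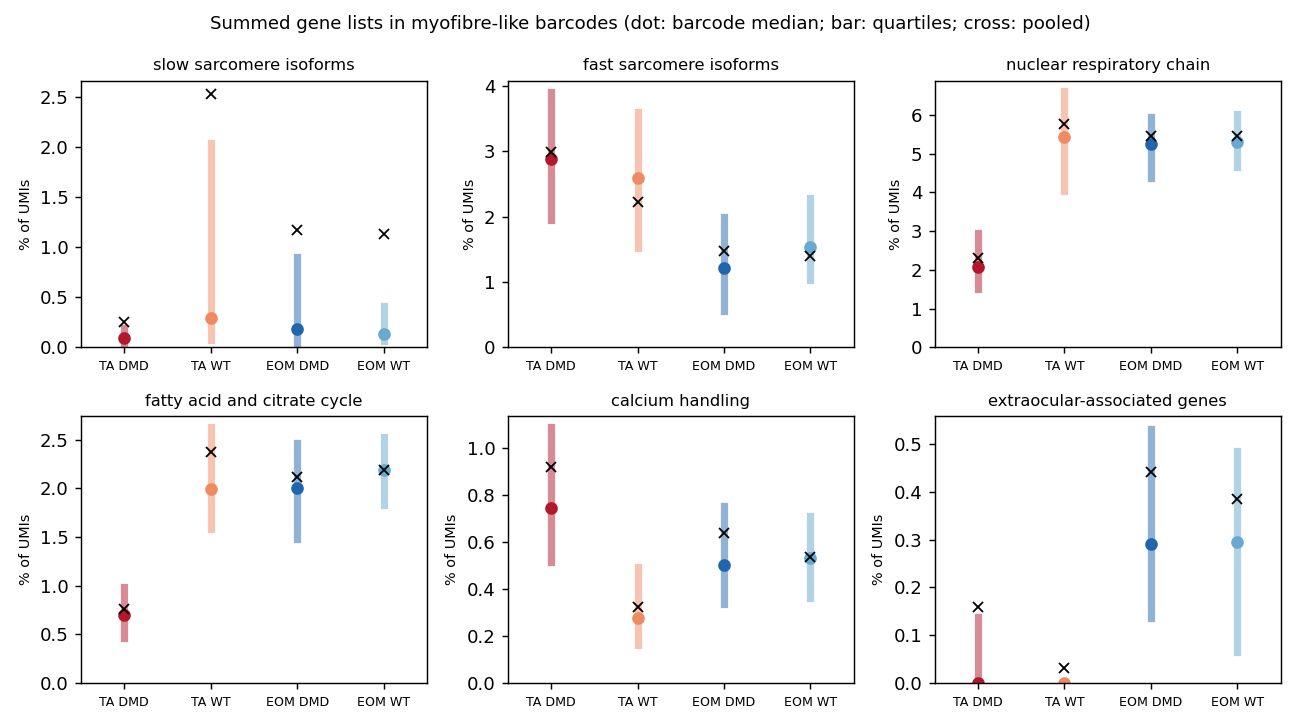
Summed UMIs of 6 gene lists as a percentage of UMIs (y axes) in myofibre-like barcodes of the 4 libraries (x axes): dots are medians over barcodes, bars the quartiles and crosses the pooled share. The respiratory chain and fatty acid lists lie lower in TA DMD than in the other 3 libraries, and the extraocular list has a median of 0 in both TA libraries.

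Genes higher in TA DMD were led by S100a4, a calcium-binding protein gene. It had 605 UMIs in 93 of 122 barcodes of TA DMD, 3347 CPM (3085 to 3624), and 4 UMIs in 3 of 130 barcodes of TA WT, 17.3 CPM (4.72 to 44.3), 193-fold higher (75.1 to 712). S100a4 is also a gene of fibroblasts and macrophages, and the other barcodes stood at 677 CPM in TA DMD and 208 in TA WT. Thinned to 500 UMIs, 64.8% of myofibre-like barcodes of TA DMD had a UMI of it, against 6.05% of barcodes with Cdh5 and Kdr, which mark endothelium (median depths 883 and 2723 UMIs). Fibroblast and macrophage barcodes were not compared in this way, and the part of their RNA in the S100a4 values was not tested. Ankrd1, a titin-binding stress gene, had 1239 CPM in TA DMD and 26 in TA WT, 47.7-fold higher (21.6 to 131), in 57 and 3 barcodes. Mustn1, a nuclear protein gene of growing muscle, had 4464 and 589 CPM, and Ctxn3 92 UMIs in TA DMD and 0 in TA WT, at least 39.2-fold higher. Tppp3, which binds tubulin, had 48 UMIs and 1, and Akip1 21 and 0, at least 8.95-fold higher. Gpc1, a heparan sulfate proteoglycan gene, had 36 UMIs and 5, with 15 of the 36 in 1 barcode, and thinned to 500 UMIs per barcode its log2 ratio was -0.39 in place of 2.72.

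The cell cycle inhibitor Cdkn1a stood at 415 CPM in TA DMD and 13 in TA WT, 32-fold higher (10.5 to 158), but 36 of its 75 UMIs in TA DMD came from 1 barcode. That barcode was the largest of the library, with 18471 UMIs and 3905 genes, 7.04% of UMIs on the rule genes and 13.7% mitochondrial. It held 9 UMIs of Myog, the factor of terminal muscle differentiation, 3 of Mymk and 5 of Mymx, which fuse myoblasts, and 21 of Chrna1, the acetylcholine receptor subunit, with 0 of Pax7. All 21 UMIs of Chrna1 in TA DMD were in it, so that its log2 ratio of 2.76 over TA WT became -0.93 without it. Neb, which encodes nebulin, had 236 of 377 UMIs there. Without it Cdkn1a still had a log2 ratio of 3.41, S100a4 6.72 and Ankrd1 5.04.

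Calcium handling genes, which release, pump and buffer calcium, held 0.92% of UMIs in TA DMD and 0.324% in TA WT. Of 17 measured, 10 passed and 5 were higher and 1 lower, where 11.0% and 36.9% of all genes tested were. A gene under 100 CPM in TA WT, such as Srl, could pass only through TA DMD, so these counts are a description. The median log2 ratio of the list was 1.33, and 0.87 without the largest barcode of each library. Sln, which inhibits the calcium pump, had 1123 CPM in TA DMD and 147 in TA WT, 7.63-fold higher (5.29 to 11.3), and Cacng1, a subunit of the calcium channel of the membrane, 1438 and 238. Pvalb had 2672 and 709.9 CPM, and Trdn, which anchors calsequestrin, 2312 and 719. The lower one was Stac3, a partner of the channel, at 116 and 389.6 CPM. In fast barcodes without Myl3, Pvalb had 2826 CPM in TA DMD and 1866 in TA WT, and the part of the fibre mix in its difference was not tested. Of 13 embryonic and regeneration genes measured, 5 passed and 4 of these were higher, Chrna1 among them only through the barcode just described. Of those that passed, only Myl4 reached the limit of 100 CPM in TA WT. The others could pass only through TA DMD, so the count is a description. Myl4, the embryonic and atrial light chain, had 1726 CPM in TA DMD and 212 in TA WT, 8.14-fold higher (6.01 to 11.2), and Tnnt2 260 and 47.6. Igf2 had 79 and 4 UMIs, 61 of the 79 in 1 barcode.

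Other groups were mixed. Fast sarcomere isoforms held 2.99% of UMIs in TA DMD and 2.23% in TA WT. Actn3, at 1682 and 632 CPM, was the 1 of 7 that was higher, near the 11.0% of all genes tested. Among shared sarcomere genes 5 were higher and 1 lower of 16 that passed, where 11.0% and 36.9% of all genes tested were. Most UMIs of Neb, 1 of the higher ones, lay in the largest barcode of TA DMD. Mybph, which also passed, had log2 ratios of -0.26 as a mean over barcodes and -2.49 thinned to 500 UMIs. The list median was 0.14, and 0.04 without the largest barcode of each library. Desmin (Des), the intermediate filament that aligns the Z-discs, had 8984 and 2969 CPM, and Ldb3, which encodes a Z-disc protein, 277 and 1467. Small heat shock proteins held 0.413% and 1.19%. Cryab, the chaperone of desmin, had 2047 and 8146 CPM, and Hspb6 332 and 1718. Of the atrophy and stress list, Gadd45a had 260 and 34.6 CPM and Cebpb 194 and 731, while the ubiquitin ligase gene Trim63, at 299 and 190.4, did not pass 2-fold. In the dystrophin-associated complex, which ties dystrophin to the membrane, 3 of 16 genes passed the filters. Of these, Cav3, the caveolin of muscle, had 487 and 164 CPM.

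**Figure D4:**
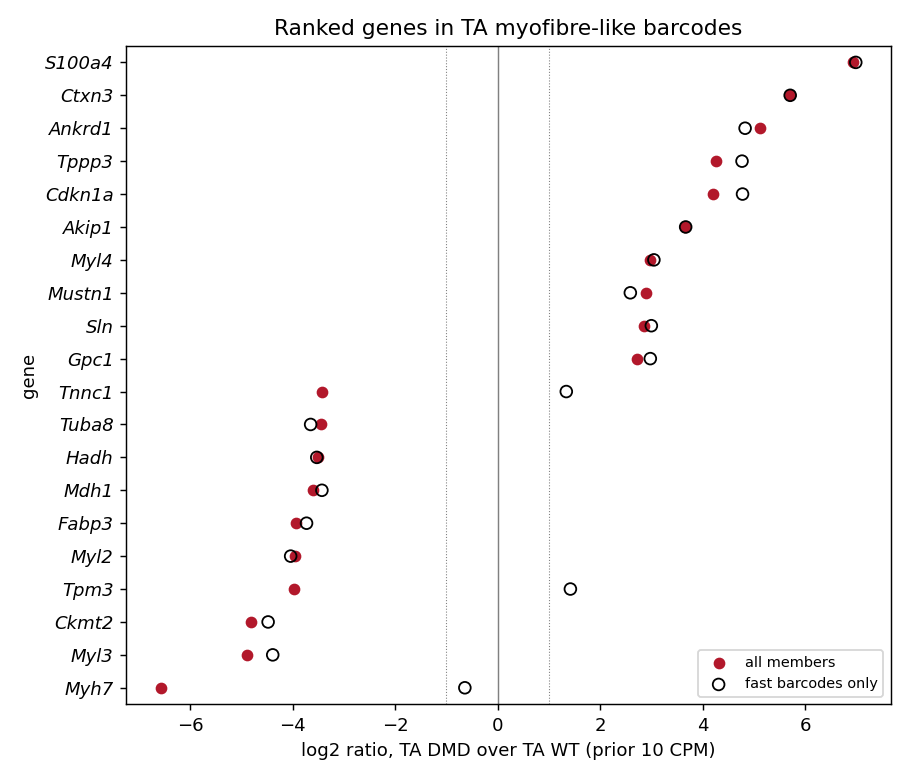
Log2 ratio of TA DMD over TA WT with 10 CPM added to both (x axis) for the 10 highest and 10 lowest ranked genes (y axis): filled circles use all myofibre-like barcodes, open circles fast barcodes only, and dotted lines mark 2-fold. Tnnc1, Tpm3 and Myh7 lie at -3.42, -3.98 and -6.57 over all barcodes; their open circles rest on 28, 3 and 0 UMIs in TA DMD and 10, 0 and 1 in TA WT and depend on the added 10 CPM, while the other 17 stay past 2-fold on their side.

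In EOM, the oxidative lists held like shares of the RNA in the libraries labelled DMD and WT. Of 767 genes tested, 3.0% were higher and 8.6% lower past 2-fold (23 and 66), with a median of -0.14. That count of 89 depends on the processing. It was 142 with the total taken without rule and mitochondrial genes, 184 as a mean over barcodes and 465 with each barcode thinned to 500 UMIs. The respiratory chain held 5.46% of UMIs in EOM DMD and 5.45% in EOM WT, and 1 of 22 features was lower. This was a copy of Uqcrb at 118 and 327 CPM, whose reads may be shared with the other copy. Fatty acid and citrate cycle genes held 2.12% and 2.19%, fast sarcomere isoforms 1.47% and 1.4%, and calcium handling genes 0.64% and 0.536%. Slow sarcomere isoforms held 1.17% and 1.13%, with 0 of 7 past 2-fold. That last value rests on 1 barcode, since EOM WT has 1 slow barcode, and without the largest barcode of each library the median of the list was 1.76 in place of 0.11. The 37 barcodes of EOM WT limit what can be seen. A gene with no UMI there could still stand at up to 44.6 CPM by the counting interval.

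The genes higher in EOM DMD were few, and Ankrd1, Ctxn3 and Myl4, ranked in TA too, were among them. Ankrd1 had 61 UMIs in 28 of 153 barcodes of EOM DMD and 0 in EOM WT, at least 4.04-fold higher. Ctxn3 had 47 UMIs and 1. Myl4 had 601 CPM in EOM DMD and 84.7 in EOM WT, but 122 of its 250 UMIs came from 1 barcode, and the 7 of EOM WT from 1 as well. Cdkn1a had 375 CPM and 133, and Gadd45a, which answers DNA damage, 327 and 109. Phlda3, a target of p53, had 108 UMIs in EOM DMD and 2 in EOM WT. Klk1 (ENSRNOG00000032857), the tissue kallikrein, had 967 CPM (875 to 1066) in 35 barcodes of EOM DMD and 36.3 (7.48 to 106) in 1 of EOM WT, 26.6-fold higher (9.05 to 129.7), with 112 of 402 UMIs in 1 barcode. Other features of that symbol had no UMI. Actn3 had 426 and 96.8 CPM and Csrp3, which encodes muscle LIM protein, 387 and 121. Sms, spermine synthase, had 57 UMIs and 1, Mlycd, malonyl-CoA decarboxylase, 47 and 2, and Tceal7 43 and 0.

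Lower in EOM DMD were genes of modest level. Slc2a4, the insulin-regulated glucose transporter, had 26.5 CPM in EOM DMD and 109 in EOM WT, 4.12-fold lower (1.51 to 10.9). Vars1, a transfer RNA synthetase gene, had 26.5 and 121 CPM, mrpl9, of the mitochondrial ribosome, 24.1 and 109, and Parp3 36.1 and 133. Tm2d1 had 43.3 and 157 CPM. The feature AABR07005775.1, which the files name only so, had 731 and 2468 CPM, 3.38-fold lower (2.81 to 4.04). In the libraries labelled DMD and WT of TA it had 1184 and 1476.

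Between the muscles labelled WT, the eye fibres had more cardiac actin and less skeletal actin and carbonic anhydrase. Of 797 genes tested, 17.3% were higher and 7.9% lower in EOM WT past 2-fold (138 and 63), with a median of 0.24. Relative to that median, 92 were higher and 88 lower. Cardiac actin Actc1 led, with 2783 CPM (2435 to 3166) in EOM WT and 64.9 (36.3 to 107) in TA WT, 42.9-fold higher (25.4 to 77.8), in 28 of 37 and 11 of 130 barcodes. Its skeletal partner Acta1 had 21922 CPM in EOM WT and 65514 in TA WT. Of the 11 extraocular-associated genes measured, 5 passed and all of those were higher, and the whole list held 0.385% of UMIs in EOM WT and 0.0307% in TA WT. Sln had 436 CPM in EOM WT and 147 in TA WT, and Myh3 10 UMIs, in 3 barcodes, and 0. Tnnt2 had 194 and 47.6 CPM, but all 16 of its UMIs in EOM WT lay in the slow barcode, and its log2 ratio of 1.82 became -2.58 without it. Of 13 embryonic and regeneration genes measured, 4 passed, and Actc1, Tnnt2 and Myh3 were higher and Myl4 lower, at 84.7 CPM in EOM WT and 212 in TA WT. The median of the list was 2.77, and -0.22 with barcodes thinned to 500 UMIs. Of the genes that passed in this list and the extraocular one, only Sln and Myl4 reached 100 CPM in TA WT. The others could pass only through EOM WT, so these counts are a description.

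The other ranked genes higher in EOM WT were of smaller count. Rab15 and Rab3b, GTPases of vesicle traffic, had 423 and 169 CPM in EOM WT and 8.66 and 4.33 in TA WT. Guca1a, an activator of guanylate cyclase, had 22 UMIs and 0, at least 20.5-fold higher, and Mybphl, a relative of myosin-binding proteins, 10 and 0. Acot9, a mitochondrial thioesterase, had 315 and 17.3 CPM. Tpm3 had 4972 CPM in EOM WT and 2156 in TA WT, but the 1 slow barcode of EOM WT held most of its 411 UMIs. The other 36 barcodes of EOM WT, all fast, had 160 UMIs, 2210 CPM, and fast barcodes of TA WT had no UMI.

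Other genes were lower in EOM WT than in TA WT. Ca3 had 7 UMIs in EOM WT, 84.7 CPM, and 960 in TA WT, 4155 CPM, 49.1-fold lower (23.7 to 122). Ppp1r27, a regulator of protein phosphatase 1, had 36.3 and 922 CPM, and Ppp1r1a, another, 109 and 757. Tbx1, a T-box factor, had 1 UMI in EOM WT and 42 in TA WT. Dhrs7c, an enzyme of the sarcoplasmic reticulum, and Hadh had 12.1 CPM each in EOM WT and 229 each in TA WT, and Tceal7 0 and 151. In EOM DMD, Tceal7 had 196 CPM in slow and 89 in fast barcodes. Hadh had a log2 ratio of 1.89 for EOM DMD over EOM WT, on 1 UMI in EOM WT. Myl3 had 871 CPM in EOM WT and 9700 in TA WT, Actn3 96.8 and 632, and Myh7 2 UMIs and 217. Of the Myh7 UMIs, the 2 of EOM WT lay in its 1 slow barcode and 216 of TA WT in its 19 slow ones. Fast barcodes had 0 and 1, so the Myh7 difference follows the number of slow barcodes. In EOM DMD Myh7 had 36 UMIs, all in slow barcodes. In fast barcodes Myl3 had 138 CPM in EOM WT and 5965 in TA WT. The respiratory chain did not part the muscles, at 5.45% of UMIs in EOM WT and 5.76% in TA WT, with 0 of 22 features past 2-fold. Of all genes tested, 17.3% were higher and 7.9% lower. The fast list held 1.4% and 2.23%.

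**Figure D5:**
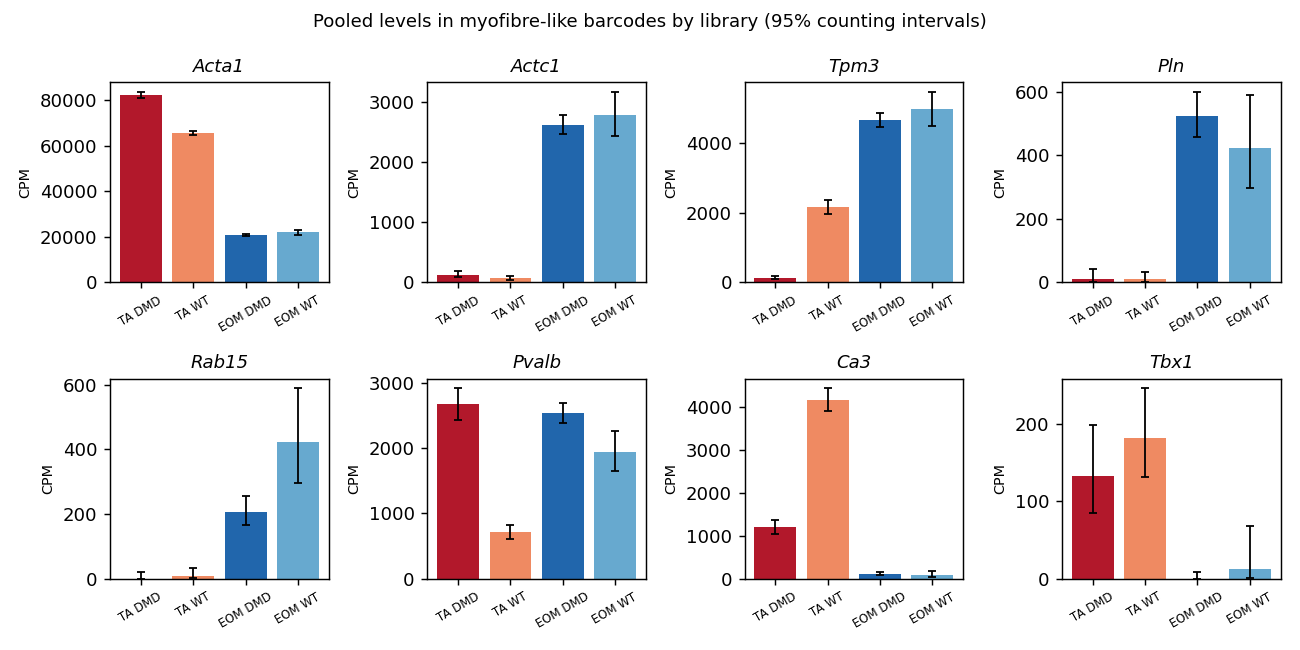
Pooled CPM (y axes, from 0) of 8 genes in myofibre-like barcodes of the 4 libraries (x axes), with 95% counting intervals as bars. Actc1, Tpm3, Pln and Rab15 are higher in both EOM libraries, though in EOM WT 1 slow barcode holds all but 1 of the 35 UMIs of Pln and all but 160 of the 411 of Tpm3, and Acta1, Ca3 and Tbx1 in both TA libraries; Pvalb is lowest in TA WT, at 709.9 CPM.

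Between the muscles labelled DMD, the eye fibres also held the oxidative genes that were low in TA DMD. This contrast shares its libraries with the others, so the values are given side by side and not as separate support. Of 657 genes, 35.2% were higher and 9.28% lower in EOM DMD past 2-fold (231 and 61), with a median of 0.64, and relative to it 168 were higher and 82 lower. The respiratory chain held 5.46% of UMIs in EOM DMD and 2.32% in TA DMD, with 17 of 22 features higher and 0 lower. Mdh1 had 1847 and 116 CPM, 15.9-fold higher (10.3 to 25.8), and Mb, 1 of the genes that chose the barcodes, 21848 and 4863. Actc1 had 2622 CPM (2468 to 2782) in EOM DMD and 127 (80.7 to 191) in TA DMD, 20.6-fold higher (13.7 to 32.6), and Acta1 20669 and 82332. Pln had 218 UMIs and 2, and Rab15 86 and 0. Rcan2, a regulator of calcineurin, had 387 and 11.1 CPM, and Ddit4l2 1919 and 111. Tpm3 had 4659 and 127, 36.6-fold higher (24.3 to 57.9).

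Lower in EOM DMD were S100a4, at 303 and 3347 CPM, 11-fold lower (9.1 to 13.5), Ankrd1, at 147 and 1239, and Cacng1, at 161 and 1438. Ca3 had 115 and 1195 CPM and Ppp1r27 3 UMIs and 33. Tbx1 had 0 UMIs in EOM DMD and 24 in TA DMD, at least 18.4-fold lower, and Smyd2, a lysine methyltransferase gene, 1 and 29. Tmem38b, a cation channel of the sarcoplasmic reticulum, had 31.3 and 227 CPM. Neb and Ryr1, the calcium release channel, were lower at 7.35-fold (5.96 to 9.11) and 6.19-fold (3.9 to 10.1), with log2 ratios of -2.83 and -2.45 that became -1.52 and -1.19 without the largest barcode of each library. The slow sarcomere list had a median of 1.73 over all barcodes and -0.05 in fast ones alone. TA DMD has 2 slow barcodes and EOM DMD 20.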

How the data were processed

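Per the file headers, the authors counted the 4 rat muscle libraries with Cell Ranger 4.0.0; per the submitters' processing notes, the build was rn6. How cells were called is not given in the sources used here. Matrices as deposited hold raw UMI counts for 25399 features per barcode. Totals were 20685086 UMIs in TA DMD, 9955900 in TA WT, 14953593 in EOM DMD and 9468266 in EOM WT, and the filters left out 3271 barcodes.

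Counts of the chosen barcodes were summed per library and given as CPM. Genes tested in a contrast had at least 100 CPM in either library and, in the higher one, at least 2-fold the CPM of the other kept barcodes. The rule genes and mitochondrial genes were left out. Ranked genes are the 10 highest and 10 lowest log2 ratios past 2-fold (prior 10 CPM) whose counting interval excludes 1 and which have a UMI in 10% of the barcodes of the higher library. List members were named from the extremes of each list, and other genes, such as those that mark the slow and fast kinds, after their values were seen. The members and lists were chosen with earlier results of these data known, and the split by troponin after seeing the data.

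Shares carry Clopper-Pearson intervals, CPM Poisson intervals and folds conditional binomial ones, at 95%. A count of 0 was set at 3 counts per library for folds. No doublet caller was run, and 14 barcodes with 1% or more of UMIs on another cell type's markers were left out in 1 alternative. Scripts used Python 3.11.15, numpy 2.4.6, scipy 1.17.1 and pandas 2.3.3. The fold rule was also run on simulated counts with counting error only. Those counts had no spread between barcodes or animals, so the run does not bear on such spread. Listed genes that the feature table lacks, such as Myh1, Myh2, Myh13, Ttn, Gapdh and Atp2a1, were not analysed here.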

Additional observations from a re-analysis of the deposited data

Results flagged for a closer look

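The share of myofibre-like barcodes moved in opposite directions in the muscles, with log2 ratios of -2.10 (-2.47 to -1.74) for TA DMD over TA WT and 1.18 (0.65 to 1.74) for EOM DMD over EOM WT. Among named genes, 3 did the same. Hadh had log2 ratios of -3.51 in TA and 1.89 in EOM, Mlycd -1.28 and 1.85, and Myh7 -6.57 and 1.5. The EOM values of Hadh, Mlycd and Myh7 rest on 1, 2 and 2 UMIs in EOM WT. With 1 library per group, none of these differences between muscles was tested.

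Barcodes over the mitochondrial limit, which enter no comparison, also held fibre RNA. In TA WT 25, in EOM DMD 43 and in EOM WT 13 had at least 5% of UMIs on the rule genes, against 2 in TA DMD. Slow barcodes numbered 4, 3, 1 and 0 among them.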

How the results depend on the processing

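Each result was recomputed under up to 14 settings, over 221 named gene values and 49 list medians. The fast-only, largest-barcode and centred settings and the troponin split were chosen after seeing the data. The share of myofibre-like barcodes kept its direction in each contrast under the 5 settings that change which barcodes are kept or chosen, and its one larger move was -1.72 in TA with a mitochondrial limit of 10%. With 10% of UMIs on the rule genes, TA WT had no slow barcode, a slow share of 0, while EOM DMD kept 14 of 20. There Tnnc1 and Tpm3 in TA had log2 ratios of 1.45 and 3.12, with no UMI of Tpm3 in TA WT, and in EOM WT over TA WT Myh7 and the myosin list had 1.11 and the slow list 0.68. In fast barcodes only, Tnnc1 and Tpm3 in TA had 1.34 and 1.42, on 28 and 3 UMIs in TA DMD and 10 and 0 in TA WT, so that these values depend on the added 10 CPM, and the slow list in EOM DMD over TA DMD -0.05. Chrna1, which rests on 1 barcode, had -0.64 in TA and 1.65 in EOM DMD over TA DMD at the 10% mitochondrial limit, -0.93 and 1.62 without the largest barcode, and in the latter contrast 1.57 at the 10% rule and 0.53 as a mean over barcodes. The atrophy list there had 0.03 at both 10% settings and 0.01 without the largest barcode. Without it the slow share of EOM WT was 0 and Tnnt2 in EOM WT over TA WT -2.58. As a mean over barcodes Tnnt2 had -0.87, Mybph in TA -0.26 and the fast list in TA -0.00. Thinned to 500 UMIs, Gpc1 and Mybph in TA had -0.39 and -2.49, and in EOM WT over TA WT Tnnt2 had -0.44, the calcium list -0.05 and the embryonic list -0.22. The causes were not tested.

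Counts of genes past 2-fold were 301 (TA), 89 (EOM), 201 (EOM WT over TA WT) and 292 (EOM DMD over TA DMD). With at least 10 CPM they were 787, 567, 870 and 720. Without the fibre guard they were 480 in TA, 144 in EOM and 462 in EOM DMD over TA DMD. In EOM the count was 55 with no mitochondrial limit, 142 with the total taken without rule and mitochondrial genes, 184 as a mean over barcodes and 465 thinned. In EOM WT over TA WT it was 307 with that other total and 572 thinned. No paired analysis was possible because each group has 1 library and the labels give no replicate numbers. Depth limits EOM WT most, with 37 barcodes and 82656 UMIs.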

Other observations

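Barcodes left out for mitochondrial content, 83 in all, had median rule gene shares of 8.86% in TA DMD, 11% in TA WT, 11.1% in EOM DMD and 10.7% in EOM WT, and median mitochondrial shares of 35.4%, 27.9%, 29.8% and 28.6%. Genes of the neuromuscular junction were sparse in the myofibre-like barcodes, at 0.0288%, 0.00822%, 0.0216% and 0.0302% of UMIs in the same order. Chrnd, the delta subunit of the acetylcholine receptor, had 45 UMIs in EOM DMD and 8 in EOM WT, against 3 in TA DMD and 4 in TA WT.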
